A study of Mus musculus with 12 samples.

Results

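The endoplasmic reticulum (ER) stress and integrated stress genes are 34 genes named for what they are known to do in these pathways. They were matched by symbol among the 55450 genes that were counted in type II alveolar epithelial (AT2) cells of the mouse. The symbol *Ddit3* belonged to 2 gene IDs, and the ID with 1 count in every library was not used. For this report the 34 genes were sorted by role into 15 chaperones and folding enzymes, 5 genes of ER-associated degradation, 6 sensors with their transcription factors, and 8 genes of the output of ATF4 and CHOP. Of the 34, 33 had enough counts to be tested, and *Ern2* had not.

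The cells came from AhRfl/fl mice, which carry a floxed aryl hydrocarbon receptor (AhR) gene, and from Sftpc-Cre;AhRfl/fl mice, in which Cre driven by the surfactant protein C promoter recombines that floxed gene in cells that use the promoter. Both lines were on the C57BL/6 background and both carry the floxed allele. The mice were 6 to 8 weeks old. AT2 cells were isolated from digested lung after cells bearing CD45 and other markers had been bound by antibodies and removed, and were plated on collagen I. They then received PBS or 50 µg/ml of cockroach extract (CRE) and were kept for 24 h. There were 3 libraries in each of 4 groups: AhRfl/fl with PBS, AhRfl/fl with CRE, Sftpc-Cre;AhRfl/fl with PBS and Sftpc-Cre;AhRfl/fl with CRE. No source used here says whether the 3 libraries of a group came from separate mice, so p-values measure only the spread between these libraries. No comparison of these 34 genes is stated as an aim of the study. The comparisons below are those that the 4 groups allow.

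When proteins fold poorly in the ER, 3 sensors in its membrane respond, and together they make up the unfolded protein response. IRE1, encoded by *Ern1*, splices the mRNA of *Xbp1* into the form that makes an active transcription factor. ATF6 is cut from the membrane and enters the nucleus, where it raises chaperone genes. PERK, encoded by *Eif2ak3*, phosphorylates eIF2 alpha, which slows translation as a whole while the protein ATF4 is made more. Other kinases that sense lack of amino acids or of heme, or double-stranded RNA, phosphorylate the same factor, and this shared route is the integrated stress response. ATF4 and CHOP, encoded by *Ddit3*, then raise genes of amino acid supply, redox balance and cell death. AT2 cells fold and secrete surfactant proteins in large amounts, and misfolded surfactant protein C is a known cause of ER stress in them. Splicing of *Xbp1*, cleavage of ATF6 and phosphorylation of eIF2 alpha are not seen in gene counts.

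Many chaperone genes carry an ER stress response element (ERSE) in the promoter, the letters CCAAT, then 9 bases, then CCACG, which ATF6 binds together with NF-Y. The element was searched on both strands in the RefSeq promoter windows of GRCm38.p6, which run from 250 bases before to 50 bases after each gene start. Windows were at hand for 30 of the 34 genes, and *Manf*, *Ern2*, *Hyou1* and *Atf6* had none. The ERSE was found 10 times in 9 of the 30 windows (30%), against 39 of all 32851 windows (0.119%). The 9 genes were *Hspa5*, *Hsp90b1*, *Calr*, *Canx*, *Pdia6*, *Dnajc3*, *Creld2*, *Syvn1* and *Derl3*, that is 7 chaperones and folding enzymes and 2 degradation genes. The matches began between 44 and 212 bases before the gene start, and 6 read as the gene does and 4 against it. They are shown because the letters at both ends are all that these promoters were required to share, while the 9 bases between them differ. Each is written 5′ to 3′ in the direction of CCAAT, with 4 bases on each side and the searched letters in capitals:
Hspa5, chr2:34772021-34772047, plus strand: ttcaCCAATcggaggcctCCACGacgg
Hsp90b1, chr10:86705634-86705660, minus strand: aagcCCAATcgcaaggagCCACGcttc
Hsp90b1, chr10:86705529-86705555, plus strand: ctcaCCAATcgtgcctcaCCACGcact
Calr, chr8:84847071-84847097, plus strand: tgggCCAATgagggtcgaCCACGcgtt
Canx, chr11:50325796-50325822, minus strand: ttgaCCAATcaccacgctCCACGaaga
Pdia6, chr12:17266487-17266513, plus strand: gagaCCAATgaaaggcggCCACGgcgt
Dnajc3, chr14:118937823-118937849, plus strand: acaaCCAATcagcgccaaCCACGaccc
Creld2, chr15:88819516-88819542, minus strand: tggaCCAATtgaggctcgCCACGagaa
Syvn1, chr19:6046528-6046554, plus strand: gcaaCCAATcggcggtagCCACGggaa
Derl3, chr10:75893238-75893264, minus strand: ctagCCAATggggaagtcCCACGgtag

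The core of the amino acid response element, TGATGNAA, through which ATF4 acts on its targets, was found in 5 of the 30 windows (16.7%), against 1304 of all windows (3.97%). Of the 5, 4 were genes of the ATF4 and CHOP output (*Asns*, *Atf3*, *Chac1* and *Trib3*) and 1 was the degradation gene *Herpud1*. They are shown as above in the direction of TGATG, with 8 bases on each side:
Asns, chr6:7693217-7693240, minus strand: cagccacaTGATGAAActtcccgc
Atf3, chr1:191183428-191183451, plus strand: ggacttggTGATGCAAgtgcgaga
Chac1, chr2:119351041-119351064, minus strand: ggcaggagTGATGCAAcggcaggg
Herpud1, chr8:94386309-94386332, minus strand: gtgcgggcTGATGCAAcccgccgt
Trib3, chr2:152344031-152344054, plus strand: cgcccggcTGATGTAAacctgagc
The core TGACGTG of ATF6 and XBP1 sites was found in 1 of the 30 windows (3.33%), that of *Hspa5*, against 661 of all windows (2.01%). Its longer form TGACGTGG was found in 0 of the 30, against 222 of all (0.676%). The core of the AhR element, TNGCGTG, was found in 2 of the 30 (6.67%), those of *Edem1* and *Atf4*, against 1664 of all (5.07%). A match of letters is a description of the window and no site of binding, and a window without a match says nothing about the factor.

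The libraries held 68878065 to 80935797 counts each, of which 0.796% to 0.907% fell on the 34 genes. *Ahr* itself was counted at 42.9 to 45.1 CPM (counts scaled to the size of the library) with PBS and 50.1 to 56.2 CPM with CRE in AhRfl/fl cells, and at 40.2 to 49.6 and 37.7 to 51.5 CPM in Sftpc-Cre;AhRfl/fl cells. Reads from any exon of *Ahr* enter these values, which therefore do not check whether the floxed exon was removed. *Cyp1b1*, a direct target of AhR, lay at 344 to 465 CPM in the 6 AhRfl/fl libraries and at 31.8 to 63.9 CPM in the 6 Sftpc-Cre;AhRfl/fl libraries, without overlap. All 10 AT2 markers were counted in every library, with *Sftpc* at 3086 to 6492 CPM. The 4 club cell markers summed to 3982 to 8106 CPM, of which *Scgb1a1* alone made up 3959 to 8069 CPM. The 10 B and plasma cell markers summed to 151 to 1973 CPM, so RNA of markers of other lung cells was present. In such bulk samples fewer cells of a type and less RNA per cell cannot be told apart.

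Most of the 34 genes were expressed well above the typical gene, with the chaperones on top. By FPKM, which is per length and so allows genes to be compared, 32 of the 33 genes tested lay above the median of all genes tested (2.10 FPKM) in PBS-treated AhRfl/fl cells, and 22 lay in the top 10%. *P4hb*, the protein disulfide isomerase that forms disulfide bonds, was at 307 ± 8.13 FPKM (SD, n = 3) and *Hspa5*, the ER chaperone BiP that also holds the sensors silent, at 282 ± 20.6 FPKM, and their libraries overlapped. Next came *Calr* and *Pdia3*, partners in the folding of glycoproteins, at 227 ± 8.10 and 218 ± 6.36 FPKM, and *Hsp90b1*, the ER member of the HSP90 family, at 167 ± 27.5 FPKM. The transcription factor *Atf4* was sixth in order at 165 ± 3.72 FPKM, far above the other sensors and factors, of which *Xbp1* had 45.0 ± 1.99 FPKM, *Atf6* 12.5 ± 0.108 FPKM, *Eif2ak3* 11.8 ± 0.651 FPKM and *Ern1* 6.92 ± 0.993 FPKM.

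Among the ATF4 and CHOP output the order ran from *Ppp1r15a*, which brings a phosphatase back to eIF2 alpha, at 75.1 ± 10.1 FPKM, through *Atf3* at 65.7 ± 2.22 and *Asns* at 63.3 ± 6.71 FPKM, to *Chac1* at 16.9 ± 1.04 and *Ddit3* at 15.2 ± 1.23 FPKM. The degradation genes ran from *Herpud1* at 63.5 ± 8.29 FPKM to *Derl3* at 0.613 ± 0.185 FPKM, the lowest gene tested, which lay above 33.9% of the genes tested. *Ern2*, which encodes the IRE1 of mucus-making epithelium, had 4 counts in each of 3 libraries and 0 in the other 9, where 0 allows up to 3 counts (0.0371 to 0.0409 CPM in those 9, counting error only). It is left with no fold change. The 6 mucous cell markers summed to 1.13 to 3.27 CPM. Of the 33 pairs of neighbours in this order, 18 overlapped between their 3 libraries and 15 did not.

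**Figure D1:**
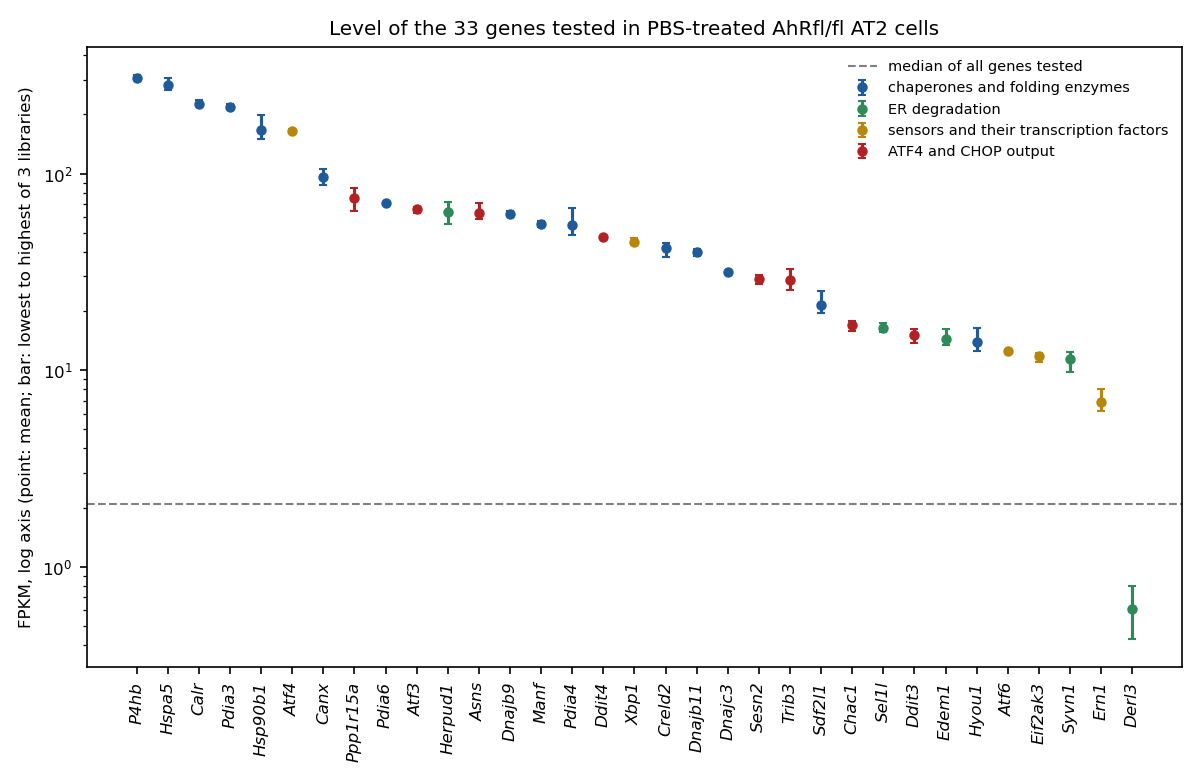
FPKM (log axis) of the 33 genes tested in the 3 PBS-treated AhRfl/fl libraries, in order of their mean; points are means, bars run from the lowest to the highest library, colours give the role and the dashed line is the median of all genes tested (2.10 FPKM). P4hb and Hspa5 lead, and Derl3 alone lies below the dashed line.

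Coordinates of the genes the comparisons turn on are those of GENCODE M21 on GRCm38. *Ddit4* lies at chr10:59949669-59951834, *Sesn2* at chr4:132492032-132510501, *Chac1* at chr2:119351229-119354381, *Ddit3* at chr10:127290774-127296288, *Xbp1* at chr11:5520659-5525893, *Hspa5* at chr2:34771970-34777547 and *Eif2ak3* at chr6:70844515-70905245. All are protein-coding, and each count covers the exons of the whole gene.

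With CRE, *Ddit4* was the gene of this group whose change passed the test, and it was small. *Ddit4*, also known as REDD1, is a target of ATF4 and other stress factors that restrains mTORC1. It stood at 91.2, 95.8 and 93.2 CPM in the 3 PBS libraries and 111, 112 and 111 CPM in the 3 CRE libraries of AhRfl/fl cells, and at 90.8, 81.4 and 87.1 CPM with PBS and 103, 105 and 104 CPM with CRE in Sftpc-Cre;AhRfl/fl cells. Every CRE library lay above every PBS library of its genotype, and the 3 CRE libraries of a genotype lay close together. The group means were 93.4 ± 2.30 and 111 ± 0.801 CPM in AhRfl/fl cells and 86.4 ± 4.74 and 104 ± 1.13 CPM in Sftpc-Cre;AhRfl/fl cells (SD, n = 3). Taken as the mean of both genotypes, *Ddit4* rose with a log2 fold change of 0.26 (SE 0.038, 95% interval 0.18 to 0.35) (BH-adjusted p = 0.00803, edgeR). Here and below, BH-adjusted p-values come from the quasi-likelihood test of edgeR, corrected after Benjamini and Hochberg over the 20612 genes tested, and a gene was called at 0.05. In each genotype alone the log2 fold change was 0.26 (SE 0.053) and 0.27 (SE 0.053), with BH-adjusted p-values of 0.121 and 0.0951 in edgeR.

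Libraries of CRE and PBS with the same number deviated together in every one of the 6 pairs, with correlations of 0.325 to 0.729, so the pairs were also fitted as blocks. This pairing is read from the data, since no label states it. So paired, *Ddit4* had a BH-adjusted p of 0.0416 in AhRfl/fl cells, 0.0452 in Sftpc-Cre;AhRfl/fl cells and 0.00667 over both in edgeR. Leaving out each of the 12 libraries in turn gave BH-adjusted p-values of 0.0107 to 0.0353 for *Ddit4* over both genotypes in edgeR. Without the 4 libraries of number 1, which held the most B and plasma cell, macrophage, leukocyte and endothelium marker RNA of their groups, the log2 fold change of *Ddit4* was 0.27 and the BH-adjusted p was 0.0810 (edgeR), an alternative chosen after the data were seen.

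In AhRfl/fl cells edgeR after BH adjustment called 0 of the 33 genes with CRE, against 0.233% of all genes tested, and DESeq2 called 1, *Ddit4*. An unadjusted p below 0.05 was found for 1 gene that was higher (background 4.92%) and 6 that were lower (18.2% of the 33, background 4.44%): *Ddit3*, *Chac1*, *Xbp1*, *Pdia6*, *Herpud1* and *Creld2*. Genes of the group are measured in the same libraries and vary together, so these 6 are not 6 separate observations. The median log2 fold change over all 33 was -0.082, with 26 below 0 and 7 above, where the median of all genes tested was -0.0012. In Sftpc-Cre;AhRfl/fl cells edgeR after BH adjustment again called 0 of 33 (background 0.262%) and DESeq2 called *Ddit4*. There 1 gene was higher (background 3.77%) and 2 were lower (background 2.71%) at an unadjusted p below 0.05, and the median over the 33 was 0.0020 (all genes -0.0027). Over both genotypes edgeR called 1 of 33 (3.03%, background 1.10%), DESeq2 called 3 (*Ddit4*, *Xbp1* and *Ddit3*), and 3 genes were higher and 5 lower at an unadjusted p below 0.05 (backgrounds 5.88% and 5.22%).

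With the pairs as blocks edgeR after BH adjustment called 3 of the 33 genes in AhRfl/fl cells (*Ddit4*, *Sesn2* and *Chac1*, background 3.63%), 2 in Sftpc-Cre;AhRfl/fl cells (*Ddit4* and *Sesn2*, background 2.13%) and 4 over both (these and *Chac1* and *Ddit3*, background 6.59%). All 4 belong to the ATF4 and CHOP output. Under the rule of the study, an unadjusted p below 0.05 by limma and a log2 fold change beyond 0.5, no gene of the 33 was called in any of the 7 comparisons made here. That rule called 4.11% of all genes for CRE in AhRfl/fl cells, 3.38% in Sftpc-Cre;AhRfl/fl cells and 4.02% over both, and 4.10%, 3.42% and 4.11% for the genotypes with PBS, with CRE and over both, and 2.30% for the difference of the CRE responses. The 95% intervals show how large a change these libraries leave room for. In AhRfl/fl cells the interval lay within 2 times up or down for 32 of the 33 genes, and within 1.41 times for 22. In Sftpc-Cre;AhRfl/fl cells the numbers were 32 and 27, and the exception at 2 times was *Derl3* in both.

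**Figure D2:**
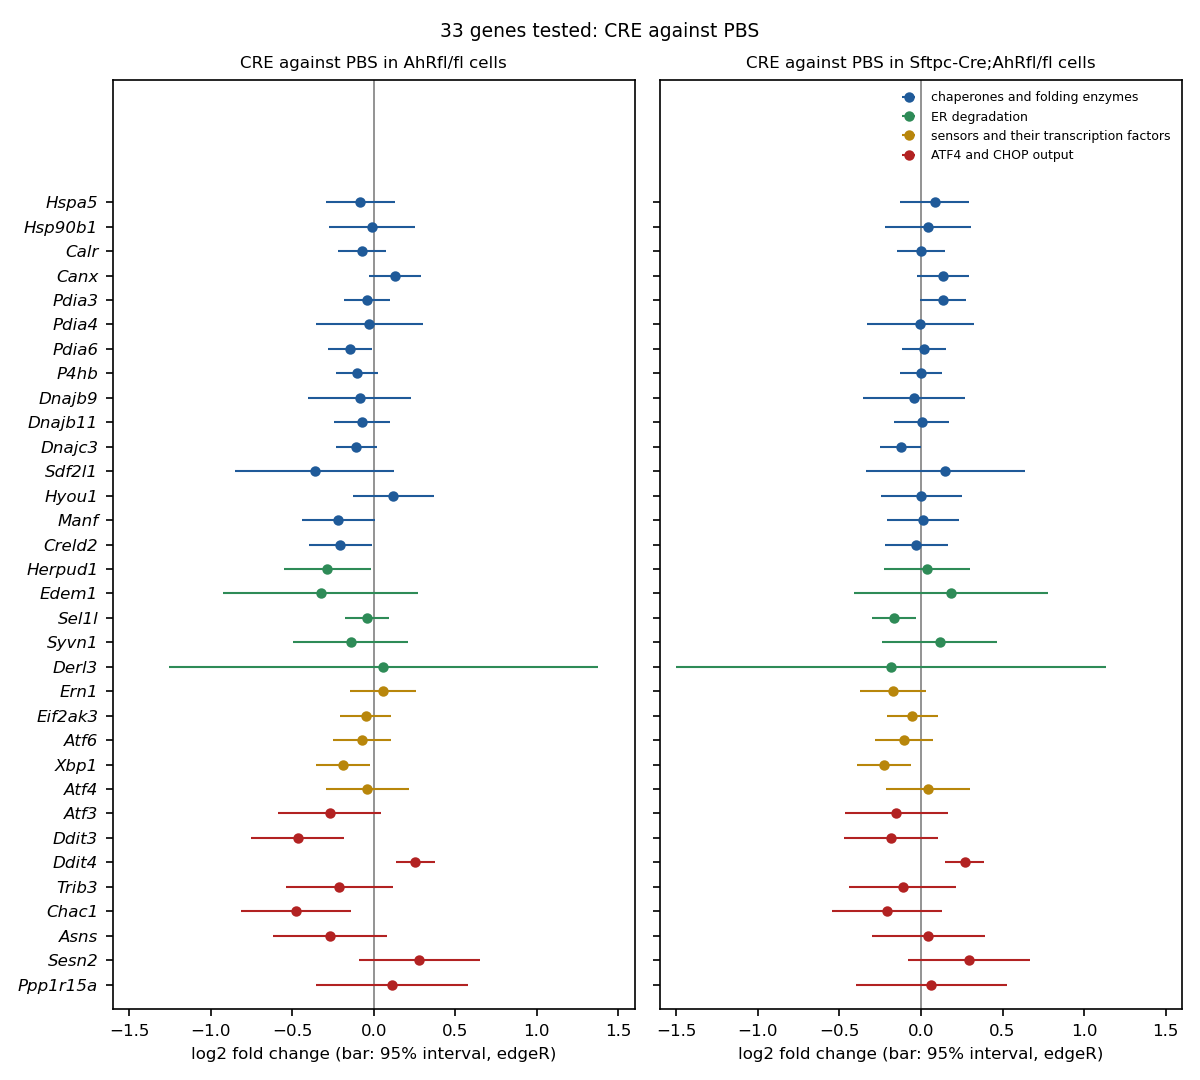
log2 fold change of CRE against PBS with its 95% interval (edgeR, 3 against 3 libraries) for the 33 genes tested, left in AhRfl/fl and right in Sftpc-Cre;AhRfl/fl cells, coloured by role. Ddit4 lies above 0 in both panels, Chac1 and Ddit3 lie farthest below 0 on the left, and Derl3 has the widest interval.

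*Sesn2*, a stress-induced inhibitor of mTORC1 that senses leucine, was next to *Ddit4* in being higher with CRE in all 6 pairs. It stood at 113, 120.2 and 108 CPM with PBS and 129.9, 154 and 131 CPM with CRE in AhRfl/fl cells, and at 85.3, 90.2 and 123 CPM with PBS and 104, 108 and 154 CPM with CRE in Sftpc-Cre;AhRfl/fl cells. In the second genotype library number 3 was the highest under both treatments, so the groups overlapped although CRE was higher in each pair. The log2 differences within pairs were 0.20, 0.36 and 0.27 in AhRfl/fl cells and 0.28, 0.26 and 0.33 in Sftpc-Cre;AhRfl/fl cells. Over both genotypes the log2 fold change was 0.29 (SE 0.12), with a BH-adjusted p of 0.395 without and 0.00374 with the pairs in edgeR. Its paired BH-adjusted p in edgeR was 0.0267 in AhRfl/fl cells and 0.0275 in Sftpc-Cre;AhRfl/fl cells.

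*Chac1*, which breaks down glutathione and is a known target of ATF4, was lower with CRE in 5 of 6 pairs. Its libraries held 32.0, 31.9 and 29.2 CPM with PBS and 23.5, 23.1 and 20.3 CPM with CRE in AhRfl/fl cells, without overlap. In Sftpc-Cre;AhRfl/fl cells they held 23.9, 23.9 and 33.0 CPM with PBS and 24.1, 19.1 and 26.6 CPM with CRE, where pair number 1 differed by 0.012 on the log2 scale and the groups overlapped. The log2 fold change was -0.48 (SE 0.15) in AhRfl/fl cells, with a BH-adjusted p of 0.340 without and 0.0327 with the pairs in edgeR. It was -0.21 (SE 0.15) in Sftpc-Cre;AhRfl/fl cells, where the BH-adjusted p-values in edgeR were 0.952 and 0.332.

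*Ddit3* encodes CHOP, the factor that links lasting ER stress to cell death. It had 29.1, 31.6 and 26.8 CPM with PBS and 23.5, 20.2 and 19.6 CPM with CRE in AhRfl/fl cells, again without overlap, a mean of 29.2 ± 2.42 against 21.1 ± 2.12 CPM (SD, n = 3). Its values in Sftpc-Cre;AhRfl/fl cells were 19.9, 25.1 and 27.9 CPM with PBS and 20.3, 22.4 and 21.4 CPM with CRE, and the groups overlapped. The log2 fold changes were -0.47 (SE 0.13) and -0.18 (SE 0.13), and neither passed, with BH-adjusted p-values of 0.247 and 0.944 in edgeR. Over both genotypes the log2 fold change was -0.33 (SE 0.092), with a BH-adjusted p of 0.161 without and 0.0481 with the pairs in edgeR, and of 0.0430 by DESeq2. *Ddit3* overlaps *Mars* on the other strand, and whether the counting used the strand is not given in the sources used here.

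*Trib3*, a pseudokinase induced by ATF4 and CHOP, was lower with CRE in all 6 pairs, at 63.6, 79.5 and 61.6 CPM with PBS against 61.0, 63.2 and 52.6 CPM with CRE in AhRfl/fl cells and 56.4, 56.4 and 73.5 CPM with PBS against 55.9, 49.5 and 66.9 CPM with CRE in Sftpc-Cre;AhRfl/fl cells. Its groups overlapped in both genotypes, and its log2 fold change was -0.21 (SE 0.15) and -0.11 (SE 0.15) in these and -0.16 (SE 0.11) over both, with BH-adjusted p-values of 0.740, 1 and 0.667 in edgeR. *Atf3*, a stress-induced repressor, was also lower in all 6 pairs, at 149, 166 and 161 CPM with PBS against 138, 139.6 and 117 CPM with CRE in AhRfl/fl cells, where the libraries did not overlap, and 151, 132 and 173 CPM with PBS against 132, 112 and 167 CPM with CRE in Sftpc-Cre;AhRfl/fl cells, where they did. *Asns*, which makes asparagine, had 180.2, 221 and 182 CPM with PBS and 156, 159 and 169 CPM with CRE in AhRfl/fl cells, without overlap, and 172, 152 and 224 CPM with PBS and 168, 169 and 229.7 CPM with CRE in Sftpc-Cre;AhRfl/fl cells. *Ppp1r15a* had 246, 283 and 214 CPM with PBS and 264, 271 and 268 CPM with CRE in AhRfl/fl cells, and 186, 203 and 286 CPM with PBS and 173, 219 and 313 CPM with CRE in Sftpc-Cre;AhRfl/fl cells, and overlapped in both.

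The 8 output genes were thus neither all higher nor all lower with CRE. *Ddit4* and *Sesn2* were higher in 6 of 6 pairs, *Trib3* and *Atf3* were lower in 6 of 6, *Ddit3* and *Chac1* were lower in 5 of 6, and *Asns* and *Ppp1r15a* differed between pairs. Over the whole group of 33, the genes higher in 6 of 6 pairs were *Ddit4*, *Sesn2* and *Canx* (9.09%, background 7.57%) and those lower in 6 of 6 were *Trib3*, *Atf3*, *Xbp1* and *Dnajc3* (12.1%, background 6.79%).

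**Figure D3:**
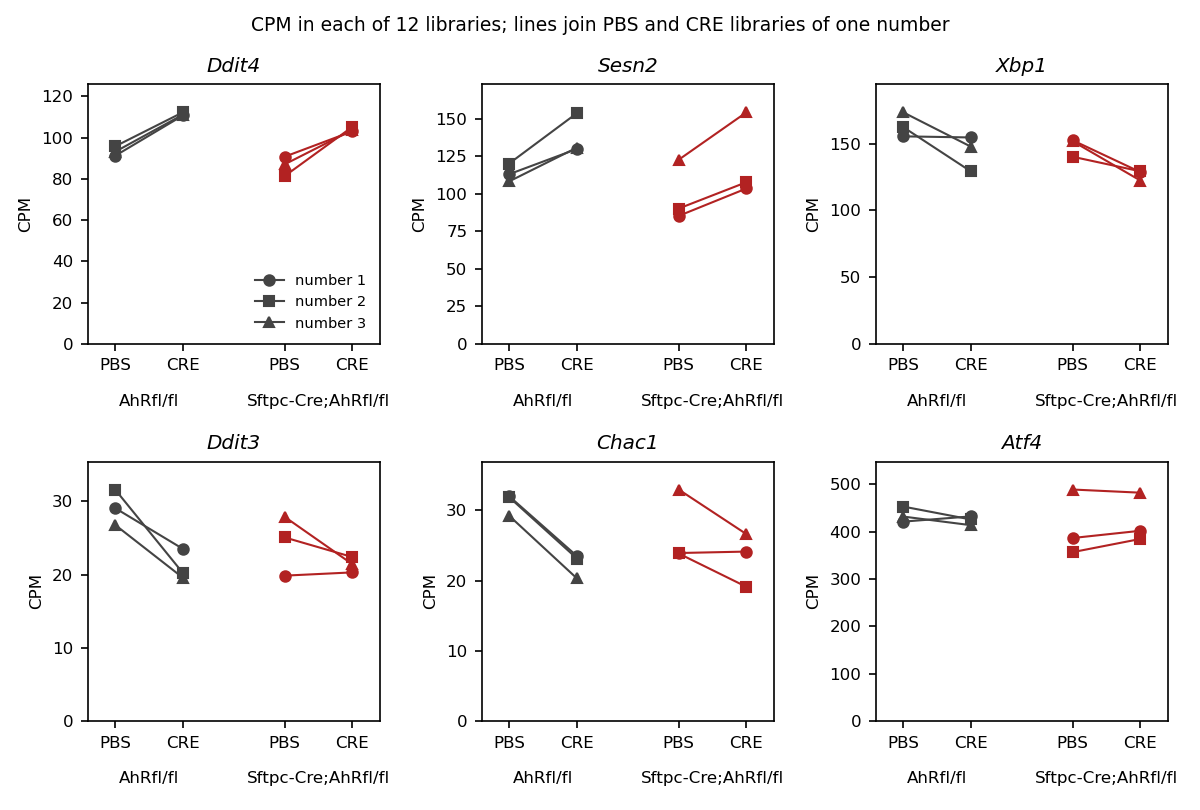
CPM of 6 genes in each of the 12 libraries, with PBS and CRE libraries of the same genotype and number joined by a line (black AhRfl/fl, red Sftpc-Cre;AhRfl/fl; the vertical axes start at 0 and differ between panels). Every line runs up for Ddit4 and Sesn2 and down for Xbp1, 5 of 6 run down for Ddit3 and Chac1, and Atf4 lines run in both directions.

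Among the sensors and their factors, *Xbp1* was lower with CRE in all 6 pairs. It had 156, 163 and 174 CPM with PBS and 155, 129 and 148 CPM with CRE in AhRfl/fl cells, and 153, 140.3 and 152 CPM with PBS and 129, 129 and 122 CPM with CRE in Sftpc-Cre;AhRfl/fl cells. The CRE libraries lay below the PBS libraries in both genotypes, by a narrow margin in the first. Its log2 fold change was -0.19 (SE 0.076) and -0.23 (SE 0.076) in the 2 genotypes (BH-adjusted p = 0.470 and 0.556 in edgeR) and -0.21 (SE 0.054) over both. The last had a BH-adjusted p of 0.120 in edgeR, 0.0561 with the pairs and 0.0167 by DESeq2, so that DESeq2 alone called it. Gene counts do not separate the spliced from the unspliced mRNA.

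*Atf4* mRNA was higher with CRE in 3 of 6 pairs and lower in 3. It had 421, 453 and 432 CPM with PBS and 432, 426 and 414 CPM with CRE in AhRfl/fl cells, and 387, 357 and 489 CPM with PBS and 402, 385 and 483 CPM with CRE in Sftpc-Cre;AhRfl/fl cells. Library number 3 of the second genotype was the highest with both treatments. The log2 fold change was -0.039 (95% interval -0.30 to 0.22) in AhRfl/fl cells and 0.042 (-0.22 to 0.30) in Sftpc-Cre;AhRfl/fl cells, with BH-adjusted p-values of 0.986 and 1 in edgeR. The protein of *Atf4* is set largely by translation, which was not measured. *Ern1*, *Eif2ak3* and *Atf6* had log2 fold changes of 0.056, -0.049 and -0.074 in AhRfl/fl cells and -0.17, -0.053 and -0.10 in Sftpc-Cre;AhRfl/fl cells, none past the test.

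The 15 chaperones and folding enzymes had no call with CRE in either genotype. *Hspa5*, the usual read-out of ER stress, had 1416, 1329.9 and 1269.7 CPM with PBS and 1394, 1186 and 1215 CPM with CRE in AhRfl/fl cells, and 1084, 1148 and 1260.0 CPM with PBS and 1179.5, 1146 and 1376 CPM with CRE in Sftpc-Cre;AhRfl/fl cells. These groups overlapped. The log2 fold change was -0.082 (95% interval -0.29 to 0.13) and 0.084 (-0.13 to 0.30), with BH-adjusted p-values of 0.899 and 1 in edgeR. *Pdia6*, a disulfide isomerase that tunes IRE1, was lower in AhRfl/fl cells, at 293, 301 and 299 CPM with PBS and 275, 265 and 268 CPM with CRE, a log2 fold change of -0.14 (SE 0.060, BH-adjusted p = 0.491 in edgeR). It had, in Sftpc-Cre;AhRfl/fl cells, 275, 302 and 269 CPM with PBS and 285, 299 and 273 CPM with CRE.

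*Canx*, a membrane-bound lectin chaperone, was the chaperone that was higher in all 6 pairs, with log2 fold changes of 0.13 and 0.14 (SE 0.072 and 0.072). *Dnajc3*, a co-chaperone that also inhibits eIF2 kinases, was lower in all 6 pairs, with -0.11 and -0.12 (SE 0.057 and 0.057). *Pdia3* had 722, 728 and 748 CPM with PBS and 755, 835 and 823 CPM with CRE in Sftpc-Cre;AhRfl/fl cells, without overlap, and a log2 fold change of 0.14 (SE 0.063, BH-adjusted p = 0.800 in edgeR). In AhRfl/fl cells 13 of the 15 log2 fold changes were below 0 (median -0.082, range -0.36 to 0.13). Those below 0 in Sftpc-Cre;AhRfl/fl cells were 4 (median 0.0056, range -0.12 to 0.15).

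*Manf* and *Creld2*, small ER proteins that are secreted under stress, were lower with CRE in 5 of 6 pairs each. *Manf* had 222, 223 and 214 CPM with PBS and 210.1, 173 and 184 CPM with CRE in AhRfl/fl cells, without overlap, and 184, 204 and 167 CPM with PBS and 194, 201 and 164 CPM with CRE in Sftpc-Cre;AhRfl/fl cells, with overlap. *Manf* overlaps *Rbm15b* on the same strand, so how reads were divided between them is uncertain. *Creld2* had 66.6, 66.3 and 58.3 CPM with PBS and 62.0, 50.8 and 53.2 CPM with CRE in AhRfl/fl cells, which overlapped by 1 library, and 55.9, 54.8 and 50.4 CPM with PBS and 52.6, 54.1 and 51.2 CPM with CRE in Sftpc-Cre;AhRfl/fl cells. Their log2 fold changes were -0.22 and -0.21 in AhRfl/fl cells (SE 0.10 and 0.087) and 0.012 and -0.028 in Sftpc-Cre;AhRfl/fl cells. *Sdf2l1*, a partner of BiP that is strongly induced by ER stress, had the most negative value of the chaperones in AhRfl/fl cells, -0.36 (95% interval -0.85 to 0.13), at 30.6, 24.7 and 25.0 CPM with PBS and 27.6, 18.0 and 16.9 CPM with CRE, and the groups overlapped.

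Over all 12 libraries *Calr* ran from 643 to 746 CPM, *P4hb* from 898 to 1030.1 CPM, *Dnajb11*, a co-chaperone of BiP, from 126 to 152 CPM, and *Hyou1*, a large chaperone that swaps the nucleotide on BiP, from 100.4 to 131 CPM. *P4hb* was lower with CRE in AhRfl/fl cells without overlap, at 944, 1030.1 and 984 CPM with PBS and 898, 929 and 931 CPM with CRE, a log2 fold change of -0.10 (SE 0.058, BH-adjusted p = 0.644 in edgeR), and in Sftpc-Cre;AhRfl/fl cells it was 0.002. *Hyou1* had log2 fold changes of 0.12 and 0.00065, and *Dnajb11* of -0.072 and 0.0056, in the 2 genotypes.

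Degradation genes take misfolded proteins out of the ER. *Herpud1*, a scaffold of this machinery, had 141, 190.3 and 168 CPM with PBS and 155, 132 and 123 CPM with CRE in AhRfl/fl cells, and 116, 123 and 130.1 CPM with PBS and 116, 125 and 138 CPM with CRE in Sftpc-Cre;AhRfl/fl cells. In AhRfl/fl cells CRE was higher in pair number 1 and lower in numbers 2 and 3, with log2 differences of 0.14, -0.53 and -0.45. Its log2 fold change in AhRfl/fl cells was -0.28 (SE 0.12, BH-adjusted p = 0.498 in edgeR). *Sel1l*, the partner of the ligase Hrd1 (*Syvn1*), had 166, 159.7 and 152 CPM with PBS and 148, 138 and 141 CPM with CRE in Sftpc-Cre;AhRfl/fl cells, without overlap, a log2 fold change of -0.17 (SE 0.062, BH-adjusted p = 0.666 in edgeR), and -0.042 in AhRfl/fl cells.

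*Edem1*, a lectin that hands glycoproteins to degradation, stood apart in 2 libraries. It had 115, 99.1 and 98.3 CPM with PBS and 113, 51.9 and 84.1 CPM with CRE in AhRfl/fl cells, and 102, 53.8 and 91.1 CPM with PBS and 104, 87.8 and 88.8 CPM with CRE in Sftpc-Cre;AhRfl/fl cells. Number 2 of the CRE-treated AhRfl/fl cells and number 2 of the PBS-treated Sftpc-Cre;AhRfl/fl cells lay 0.64 below the lowest other library on the log2 scale. Of the 20612 genes tested, 27 had a gap at least that large in the same 2 libraries, and 273 had those 2 libraries as their lowest. *Edem1* was the only gene of the 33 among these 273. This pattern was picked after the values were seen. The log2 fold change of *Edem1* with CRE was -0.33 (95% interval -0.92 to 0.27) in AhRfl/fl cells and 0.18 (-0.41 to 0.78) in Sftpc-Cre;AhRfl/fl cells.

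Counting libraries that did not overlap in place of testing, 2 genes were higher with CRE (6.06%, background 8.82%) and 10 lower (30.3%, background 7.66%) in AhRfl/fl cells. The 10 were *Pdia6*, *P4hb*, *Dnajb9*, *Dnajc3*, *Manf*, *Xbp1*, *Atf3*, *Ddit3*, *Chac1* and *Asns*. In Sftpc-Cre;AhRfl/fl cells 3 were higher (*Canx*, *Pdia3* and *Ddit4*, 9.09%, background 6.49%) and 2 lower (*Sel1l* and *Xbp1*, 6.06%, background 5.35%). *Ddit4* and *Xbp1* were the genes without overlap in the same direction in both genotypes.

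Whether the genotypes differ in their response to CRE was tested as an interaction. edgeR after BH adjustment called 0 of the 33 genes, as it did of all genes tested (background 0), and so did DESeq2 and the paired fit for the 33. At an unadjusted p below 0.05 there were 0 of 33 in either direction, where 1.68% of all genes were higher and 2.02% lower in the response of Sftpc-Cre;AhRfl/fl cells. The smallest unadjusted p-values by edgeR belonged to *Pdia3*, *Pdia6* and *Herpud1*, with differences of the log2 fold change of 0.18 (SE 0.089), 0.16 (SE 0.085) and 0.32 (SE 0.17). The next were *Ern1* with -0.22 (SE 0.13) and *Sdf2l1* with 0.51 (SE 0.31), and the BH-adjusted p of all 33 was 1 in edgeR. *Atf4*, *Xbp1* and *Trib3* had differences of 0.081, -0.038 and 0.10 (SE 0.16, 0.11 and 0.21). For *Ddit3* the difference was 0.28 with a 95% interval of -0.12 to 0.69, for *Chac1* 0.27 with -0.21 to 0.74, and for *Hspa5* 0.17 with -0.14 to 0.47. That a gene was without overlap in AhRfl/fl cells and not in Sftpc-Cre;AhRfl/fl cells is therefore not shown to be a difference between the genotypes.

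Between the genotypes the 33 genes leaned lower in Sftpc-Cre;AhRfl/fl cells, and none passed edgeR after BH adjustment. With PBS it called 0 of 33 (background 0.150%), with CRE 0 of 33 (background 0.170%) and over both treatments 0 of 33 (background 0.631%). DESeq2 called 0, 0 and 1, the last being *Eif2ak3*. Over both treatments these fits count PBS and CRE libraries of one number as separate, although they deviated together. The SEs and p-values between genotypes over both treatments are therefore likely too small. At an unadjusted p below 0.05, 0 were higher and 5 lower with PBS (15.2%, backgrounds 3.76% and 4.60%), 0 were higher and 3 lower with CRE (9.09%, backgrounds 2.94% and 3.01%), and 0 were higher and 5 lower over both (15.2%, backgrounds 5.06% and 4.87%). With PBS 28 of the 33 log2 fold changes were below 0, with a median of -0.10 (all genes -0.0010), and with CRE 22 were below 0, with a median of -0.037 (all genes -0.0034). The genes vary together in the same libraries, so these are not 28 or 22 separate observations. The ciliated cell markers summed to 104 to 153 CPM in the 6 AhRfl/fl libraries and to 149.9 to 255.7 CPM in the 6 Sftpc-Cre;AhRfl/fl libraries. All 5 of them were higher in Sftpc-Cre;AhRfl/fl cells over both treatments at an unadjusted p below 0.05 by edgeR (median log2 fold change 0.55), and 0 were called after BH adjustment. With PBS 8 of the 10 AT2 markers were below 0 (median -0.21), and their sums were 7641 to 8610 CPM in AhRfl/fl and 4497 to 8734 CPM in Sftpc-Cre;AhRfl/fl cells. The part of these markers in the values of the 33 genes was not tested. The 95% interval with PBS lay within 1.41 times for 24 of the 33 genes and within 2 times for 32, all but *Derl3*.

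*Eif2ak3*, which encodes PERK, was the gene of the group with the smallest p between genotypes over both treatments. It had 73.0, 82.4 and 83.7 CPM with PBS and 72.8, 82.3 and 75.9 CPM with CRE in AhRfl/fl cells, and 66.1, 68.0 and 70.7 CPM with PBS and 68.4, 63.7 and 65.3 CPM with CRE in Sftpc-Cre;AhRfl/fl cells. All 6 libraries of the second genotype lay below all 6 of the first. PBS and CRE libraries of the same number deviated together, so these are not 6 separate observations in each genotype. Within a treatment, the second genotype lay below the first without overlap for 7.38% of all genes tested with PBS and 5.43% with CRE. How many part under both treatments at once was not counted, and *Eif2ak3* was picked for its p. The log2 fold change was -0.22 (SE 0.071) with PBS, -0.23 (SE 0.071) with CRE and -0.23 (SE 0.050) over both. The BH-adjusted p over both was 0.102 in edgeR and 0.00890 by DESeq2. Neither fit allows for the pairs, so the SE and p-values over both are likely too small.

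*Herpud1* had the smallest p with PBS, at 167 ± 24.7 CPM in AhRfl/fl and 123 ± 7.26 CPM in Sftpc-Cre;AhRfl/fl cells (SD, n = 3), without overlap, a log2 fold change of -0.44 (SE 0.12, BH-adjusted p = 0.333 in edgeR). With CRE it was -0.12 (SE 0.12). *Creld2* and *Manf*, small secreted ER proteins, had -0.25 (SE 0.087) and -0.25 (SE 0.10) with PBS, and *Syvn1* had -0.37 (SE 0.16), with 35.0 CPM in PBS library number 2 of Sftpc-Cre;AhRfl/fl cells, the lowest of the 12. *Xbp1* had -0.14 with PBS and -0.18 with CRE (SE 0.076 and 0.076), and *Ddit4* had -0.11 and -0.10 (SE 0.053 and 0.053).

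Over both treatments the next smallest p-values were those of *Herpud1* with -0.28, *Xbp1* with -0.16, *Ddit4* with -0.11 and *Creld2* with -0.16 (BH-adjusted p of 0.259, 0.299, 0.357 and 0.402 in edgeR). With CRE, *Ern1* had -0.21 (SE 0.092) and *Pdia3* 0.11 (SE 0.063), with BH-adjusted p-values of 0.831 and 0.939 in edgeR.

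*Hspa5* had a log2 fold change between genotypes of -0.20 with PBS (SE 0.10, BH-adjusted p = 0.620 in edgeR) and -0.036 with CRE (SE 0.10). *Atf4* had -0.084 and -0.0032, *Ddit3* -0.26 and 0.018, and *Trib3* -0.14 and -0.037. Without overlap with PBS were 0 genes that were higher (background 6.60%) and 9 that were lower (27.3%, background 7.38%): *Hspa5*, *Calr*, *Pdia3*, *Manf*, *Creld2*, *Herpud1*, *Eif2ak3*, *Xbp1* and *Ddit4*. With CRE these were 0 (background 5.56%) and 3 (*Ern1*, *Eif2ak3* and *Ddit4*, 9.09%, background 5.43%). The CRE and genotype comparisons share groups, so their values are not independent of each other.

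**Figure D4:**
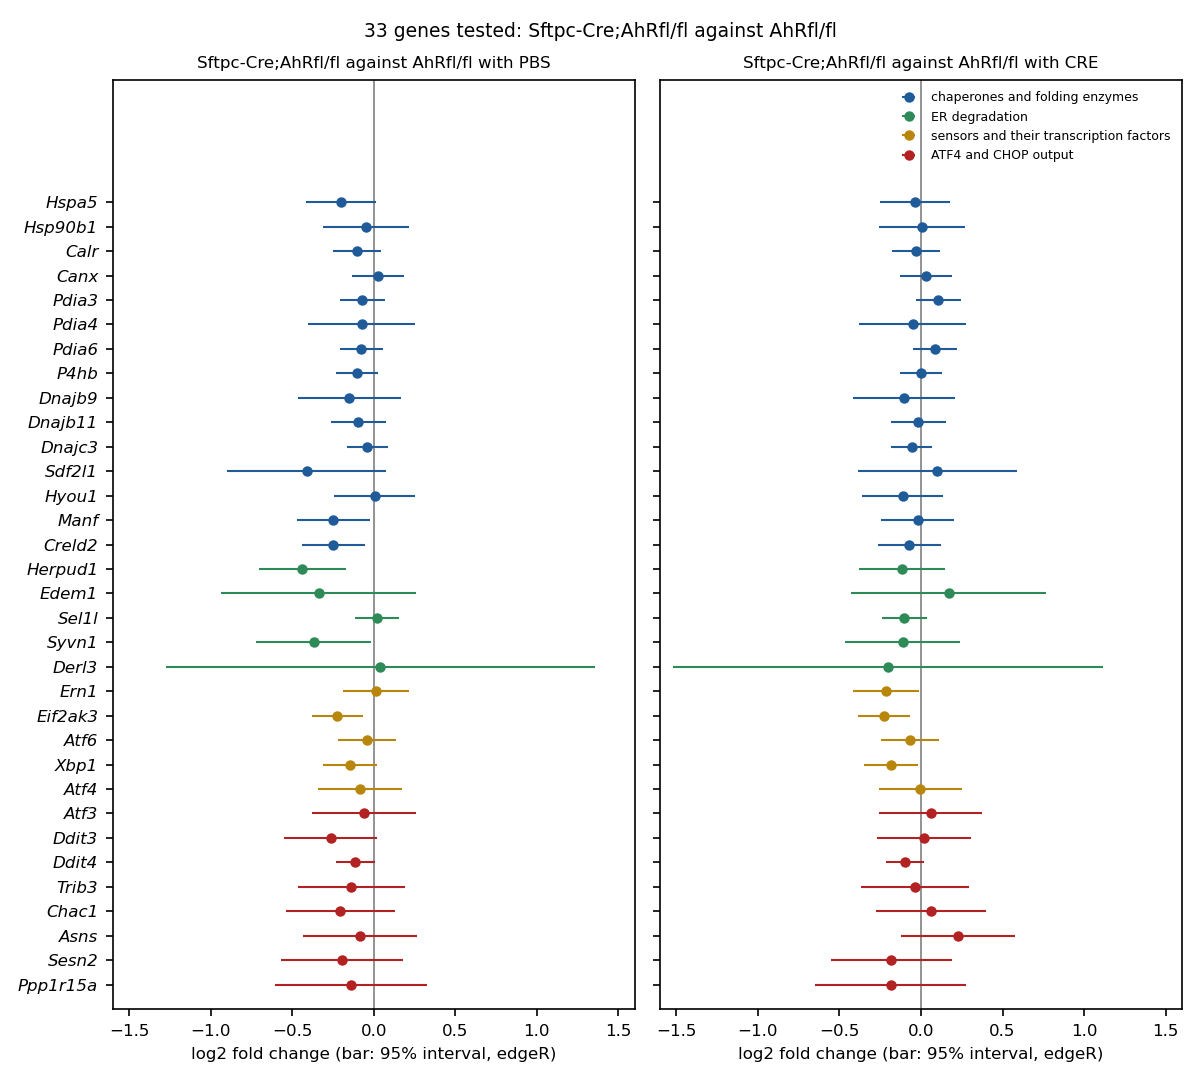
log2 fold change of Sftpc-Cre;AhRfl/fl against AhRfl/fl cells with its 95% interval (edgeR, 3 against 3 libraries) for the 33 genes tested, left with PBS and right with CRE, coloured by role. On the left 28 of 33 points lie below 0, and Eif2ak3 lies below 0 by about the same amount in both panels.

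Over the 33 genes the means of the 6 pairs spread over a median of 0.35 on the log2 scale, which also holds the difference between the genotypes, and the median size of the CRE difference within a pair was 0.13. Over all genes tested these values were 0.66 and 0.30. Pair number 1 of AhRfl/fl cells was the highest in 13 genes, among them *Hspa5*, *Hsp90b1*, *Pdia4*, *Sdf2l1*, *Hyou1*, *Manf*, *Creld2*, *Edem1* and *Derl3*. Pair number 3 of Sftpc-Cre;AhRfl/fl cells was the highest in 10, among them *Atf4*, *Atf3*, *Asns*, *Chac1*, *Sesn2* and *Ppp1r15a*, and the lowest in 10 others, among them *Pdia4*, *Sdf2l1*, *Hyou1*, *Manf* and *Creld2*. Pair number 2 of Sftpc-Cre;AhRfl/fl cells was the lowest in 13, among them *Edem1*, *Derl3*, *Eif2ak3*, *Xbp1*, *Atf4*, *Atf3*, *Ddit4*, *Chac1* and *Asns*. That pair also held the highest sums of fibroblast markers, 272 CPM with PBS and 232 CPM with CRE. Its sums of mesothelium markers, 252 and 214 CPM, were the highest too. The part of these markers in the values was not tested. How many of all genes tested were highest or lowest in each pair was not counted.

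*Hsp90b1* shows the first of these patterns, at 877, 697 and 682 CPM with PBS and 874, 672 and 693 CPM with CRE in AhRfl/fl cells. *Pdia4*, a folding enzyme, follows it, at 175, 136 and 132 CPM with PBS and 173, 127 and 134 CPM with CRE. *Derl3*, a degradation gene known for its use in secretory cells, had 1.79, 1.01 and 1.40 CPM with PBS and 2.91, 0.818 and 0.644 CPM with CRE in AhRfl/fl cells and 1.76, 0.864 and 1.70 CPM with PBS and 1.98, 0.642 and 1.18 CPM with CRE in Sftpc-Cre;AhRfl/fl cells, highest in number 1 of each of the 4 groups. Plasma cells are known for high levels of these genes. The 10 B and plasma cell markers, all counted in every library, summed to 1973, 377 and 197 CPM with PBS and 1815, 322 and 151 CPM with CRE in AhRfl/fl cells, and to 1239, 315 and 569.9 CPM with PBS and 1269, 274 and 490.0 CPM with CRE in Sftpc-Cre;AhRfl/fl cells. *Prdm1*, which is among the 10, was highest in number 3 of both Sftpc-Cre;AhRfl/fl groups, at 19.0 CPM with PBS and 24.6 CPM with CRE. The sum of the 10 was highest in number 1 of every group. So were the sums of the leukocyte, macrophage and endothelium markers, which were 322, 78.8 and 18.7 CPM, 332, 116 and 94.3 CPM and 90.5, 42.9 and 52.0 CPM in AhRfl/fl cells with PBS. Number 1 was thus the highest both for these sums and for *Derl3* in all 4 groups, and for *Hsp90b1* and *Pdia4* in AhRfl/fl cells. The order of numbers 2 and 3 was not always shared. Not every gene of the group was highest in number 1. In AhRfl/fl cells with PBS it was the lowest for *Xbp1* (156, 163 and 174 CPM) and *Herpud1* (141, 190.3 and 168 CPM). With CRE it was the highest for both, at 155, 129 and 148 CPM and at 155, 132 and 123 CPM. The part of these sums in the values of the genes was not tested.

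*Dnajb9*, a co-chaperone of BiP, shows the pattern of pair number 3 of Sftpc-Cre;AhRfl/fl cells, at 135, 155 and 194 CPM with PBS and 136, 143 and 191 CPM with CRE, against 179.5, 179 and 178 CPM in AhRfl/fl cells with PBS. The 10 AT2 markers summed to 4497, 6313 and 8734 CPM with PBS and 4683, 6397 and 9108 CPM with CRE in Sftpc-Cre;AhRfl/fl cells, lowest in number 1 and highest in number 3 as were *Dnajb9*, *Hspa5* with PBS, *Sesn2* and *Ppp1r15a*. In AhRfl/fl cells they summed to 8356, 8610.0 and 7641 CPM with PBS and 7322, 7371 and 6699 CPM with CRE. Their part in the values was not tested. The sum of the 8 AT1 markers, of the flat cells that AT2 cells give rise to, was lower with CRE in every pair. It went from 1669, 1991 and 2107 CPM with PBS to 1119, 1351 and 1403 CPM with CRE in AhRfl/fl cells. In Sftpc-Cre;AhRfl/fl cells it went from 1769, 2398 and 2030.0 CPM with PBS to 1295, 1657 and 1459 CPM with CRE. *Ager*, *Aqp5*, *Clic5* and *Rtkn2* were lower in every pair, while *Hopx*, *Pdpn*, *Cav1* and *Akap5* were not. Like this sum, *Xbp1*, *Trib3*, *Atf3* and *Dnajc3* were lower with CRE in every pair, while *Ddit4*, *Sesn2* and *Canx* were higher in every pair. The part of the AT1 sum in these differences was not tested.

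**Figure D5:**
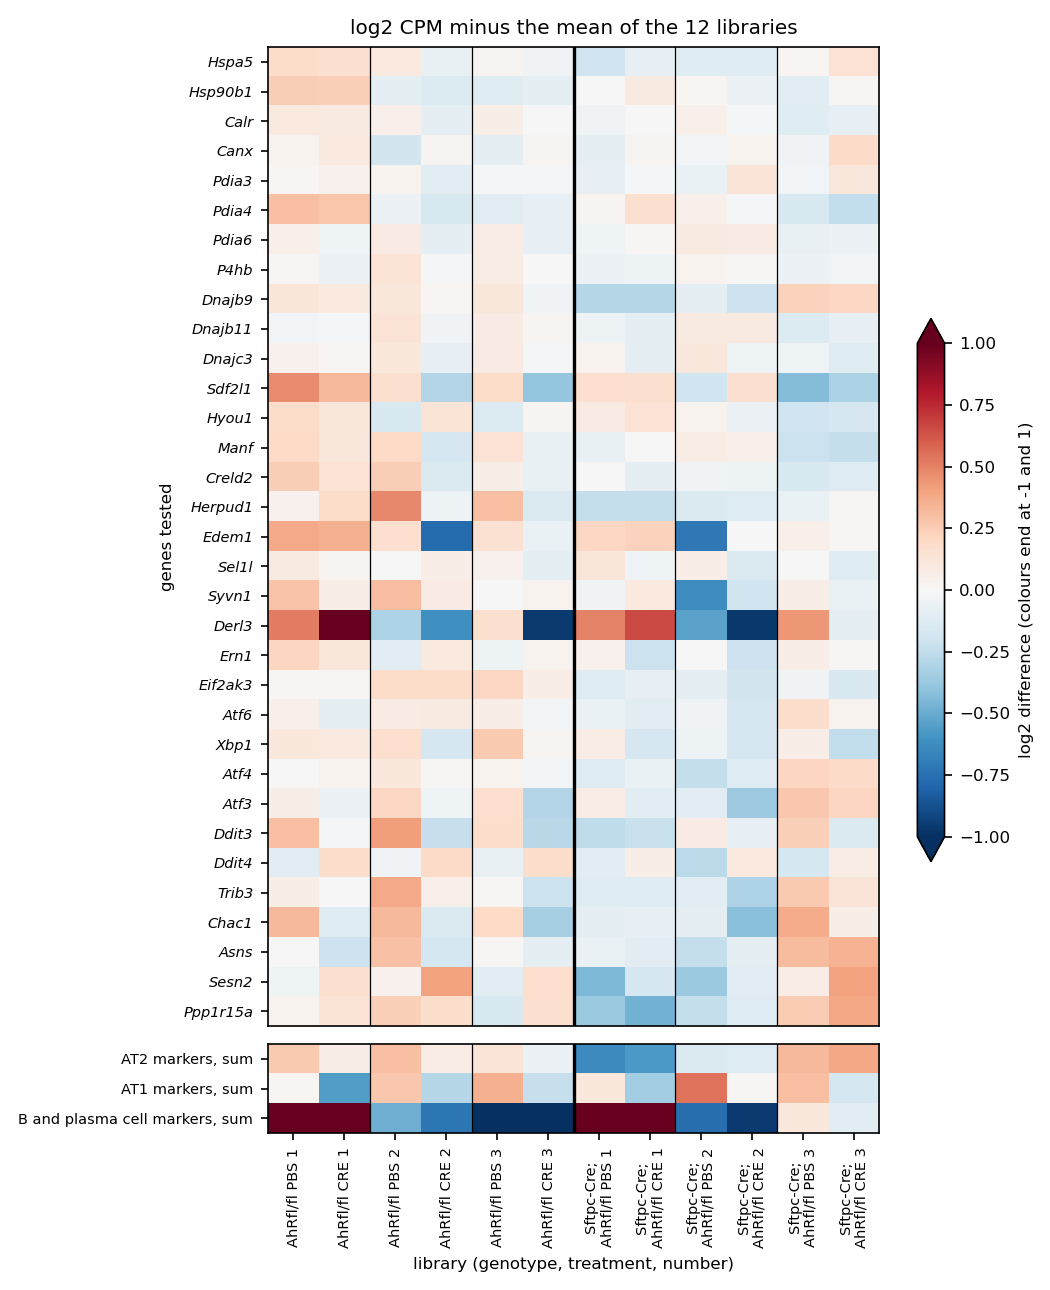
log2 CPM minus the mean of the 12 libraries for the 33 genes tested (upper block) and for the summed CPM of 3 marker lists (lower block), with PBS and CRE libraries of the same number side by side and the genotypes parted by a thick line. Columns of a pair are alike for most genes, the B and plasma cell sum is highest in number 1 of each genotype, and the AT2 sum is lowest in number 1 of Sftpc-Cre;AhRfl/fl cells.

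Over the 12 libraries, after the mean of each group was taken off, the log2 CPM of the 8 output genes had a median Pearson r of 0.61 over 28 pairs of genes, 27 of them above 0. The highest r among them was 0.92, of *Sesn2* and *Ppp1r15a*, and *Atf4* had 0.93 with *Asns*. The 15 chaperones had a median of 0.21 over 105 pairs, from -0.63 to 0.92. Between chaperones and output genes the median was -0.27 over 120 pairs. These values describe 12 libraries that share pairs and cell makeup. The same medians were not taken over other genes, so no background stands beside them. Without taking off group means, the genes outside the group most like *Hspa5* were *Chmp1b* (r = 0.92), *Chia1*, *Hhipl2*, *Rpl18* and *C6* (0.90 to 0.89), and the closest member was *Dnajb9* (0.81), at rank 33 among all genes. Most like *Ddit3* were *Cox6a2* (0.94), *Naif1*, *Pdcd2*, *Guca2a* and *Atp5g1* (0.92 to 0.89), and the closest member was *Chac1* (0.79).

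The other genes of these pathways were read from 3 lists. Of 40 tested genes of ATF4 targets and amino acid supply, edgeR after BH adjustment called 1 higher and 0 lower with CRE in AhRfl/fl cells (background 0.233%). It called 0 in Sftpc-Cre;AhRfl/fl cells (background 0.262%) and 1 higher over both (background 1.10%). With the pairs, 2 were called higher and 1 lower in AhRfl/fl cells (background 3.63%). In Sftpc-Cre;AhRfl/fl cells 1 was then called higher (background 2.13%), and over both 4 were called higher (background 6.59%). The gene called without the pairs was *Slc7a11*, the cystine carrier, which is a target of NRF2 as well as of ATF4. Its log2 fold change was 1.48 (SE 0.23) in AhRfl/fl cells and 1.19 (SE 0.23) in Sftpc-Cre;AhRfl/fl cells, with BH-adjusted p-values of 0.0299 and 0.0797 in edgeR, and 0.00173 and 0.00265 with the pairs. The median log2 fold change of this list was 0.0067 and 0.030 in the 2 genotypes. Of 50 tested genes of ER folding, translocation and degradation, 0 were called with CRE, and 0 were higher and 9 lower in AhRfl/fl cells at an unadjusted p below 0.05 (backgrounds 4.92% and 4.44%), with 1 and 0 in Sftpc-Cre;AhRfl/fl cells (backgrounds 3.77% and 2.71%). With the pairs, 1 was called higher in Sftpc-Cre;AhRfl/fl cells (background 2.13%) and 1 higher and 3 lower over both (background 6.59%), and 3 were called lower in AhRfl/fl cells in edgeR (background 3.63%), namely *Selenos*, *Kdelr3* and *Ssr2*, which act in degradation, in the retrieval of ER proteins and in translocation, with log2 fold changes of -0.29, -0.47 and -0.45. They are named because of this call, after their values were seen. Of 25 tested eIF2 kinases, phosphatases, ATF6 proteases and relatives, 0 were called with CRE without the pairs, with medians of -0.012 and 0.021. With the pairs, 3 of them were called lower in AhRfl/fl cells (background 3.63%) and 0 in Sftpc-Cre;AhRfl/fl cells (background 2.13%). Over both, 1 was called higher and 3 lower (background 6.59%). Between the genotypes none of the 3 lists had a call with PBS, with CRE or over both.

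For comparison, the chaperones of other compartments were read in the same way. Of 21 tested cytosolic heat shock genes edgeR after BH adjustment called 0 with CRE, and 6 were higher and 0 lower over both genotypes at an unadjusted p below 0.05 (backgrounds 5.88% and 5.22%), with a median log2 fold change of 0.089. Of the 5 called higher with the pairs (background 6.59%), *Hspa1b* had 0.35 (SE 0.085) and *Hsp90ab1* 0.21 (SE 0.053), with BH-adjusted p-values of 0.0947 and 0.106 in edgeR, and 0.00215 and 0.00379 with the pairs. *Hspa1b* has the near-identical copy *Hspa1a*, and how reads were divided between them is uncertain. Over both treatments 1 cytosolic gene was called between genotypes, *Hspa4l*, with a log2 fold change of -0.36 (SE 0.066, BH-adjusted p = 0.0410 in edgeR). That fit does not allow for the pairs, so its p is likely too small. Of 12 mitochondrial chaperones and proteases 0 were called in any of the 7 comparisons without the pairs, and the median over both genotypes with CRE was 0.026. The 15 ER chaperones had a median of -0.035 in that comparison. Whether the lists differ was not tested.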

How the data were processed

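RNA-seq libraries from 12 samples of cultured mouse AT2 cells were made with the TruSeq stranded mRNA kit. According to the methods and processing notes, the authors aligned the reads to GRCm38 (mm10) with STAR 2.7.2b, annotated them with Partek and RefSeq and obtained counts with Salmon. Whether the counting used the strand, and how whole numbers were reached, is not given in the sources used here. The deposited table holds 1 raw count per gene and library, in whole numbers, with no pooling of replicates. The authors also deposited FPKM, which is per length and library size and reads 0.0001 where the count is 0, and these values were used for levels only. All 55450 gene IDs were found in GENCODE M21, which uses the same build.

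Counts were scaled by TMM and tested with the quasi-likelihood test of edgeR 4.0.16 in R 4.3.3, with a mean for each of 4 groups, after filterByExpr with a minimum count of 10 (20612 genes, 8 residual degrees of freedom). CPM were computed from the same counts and TMM factors. P-values were adjusted after Benjamini and Hochberg over all genes tested, and a gene was called at 0.05. Comparisons were CRE against PBS in each genotype and as their mean, the genotypes with each treatment and as their mean, and the difference of the CRE responses. Same-numbered PBS and CRE libraries of a genotype deviated together in every pair (r of 0.325 to 0.729 over 14543 genes), a pairing read from the data, and the paired fit has 4 residual degrees of freedom. Alternatives were DESeq2 1.42.0, limma 3.58.1, the rule of the study (p under 0.05 and a log2 fold change over 0.5, prior count 2), DESeq2 size factors, a filter of 1 CPM in 3 libraries, no filter, the blocks and leaving out libraries. The script was tested on simulated data. Values were named for called genes, for the 5 smallest p-values in each comparison and for *Hspa5*, *Atf4*, *Ddit3*, *Xbp1* and *Trib3* throughout, and genes of other lists where called without the pairs, with a few others named after their values were seen. The members and lists were chosen with earlier results of these data known. Depth limits precision through counting error only, and a count of 0 allows 3 counts.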

Additional observations from a re-analysis of the deposited data

How the results depend on the processing

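Of 1080 values of 63 gene and comparison pairs under other settings, 1017 kept direction and side of the threshold, 2 lost a call, 10 gained one and 51 changed sign, none of the last with a call on either side. DESeq2 called 1, 1 and 3 genes for CRE in AhRfl/fl cells, in Sftpc-Cre;AhRfl/fl cells and over both, and 1 between genotypes over both treatments. The replicate block called 3, 2 and 4 for CRE, and changed no other count. As a block the number called 0 genes of the group between genotypes. Over all genes tested it called 71 with PBS and 55 with CRE, against 31 and 35 without it. Libraries of number 1 correlated between genotypes at 0.420 with PBS and 0.413 with CRE. Those of numbers 2 and 3 correlated at -0.0286 to 0.106. What the libraries of number 1 share was not tested. The rule of the study, and leaving out number 1 of each group (chosen after seeing the data), called 0 for CRE over both genotypes. Leaving out 1 library at a time changed no count. For CRE over both genotypes *Hspa5* had -0.0024 by DESeq2 and with its size factors, -0.0011 by limma, by the rule of the study and with the block, -0.0039 with the 1 CPM filter and -0.027 without number 1, and *Atf4* had -0.0018 by DESeq2 and with its size factors, -0.0034 with the filter and -0.023 without number 1. Without number 1 the genotypes with CRE differed by 0.065 for *Hspa5*, 0.041 for *Atf4* and 0.0030 for *Trib3*, and the CRE responses by 0.053 for *Xbp1*. The cause was not tested. Over the fits without 1 library, CRE in Sftpc-Cre;AhRfl/fl cells ranged from -0.0019 to 0.14 for *Hspa5*, -0.063 to 0.19 for *Atf4* and -0.24 to 0.027 for *Trib3*, and over both genotypes from -0.042 to 0.031 for *Hspa5* and -0.051 to 0.074 for *Atf4*. For the genotypes *Atf4* ranged from -0.23 to 0.0077 with PBS, -0.11 to 0.073 with CRE and -0.12 to 0.0023 over both. With CRE *Hspa5* ranged from -0.12 to 0.039, *Ddit3* from -0.033 to 0.10 and *Trib3* from -0.16 to 0.072. For the difference of responses *Atf4* ranged from -0.024 to 0.23, *Xbp1* from -0.11 to 0.017 and *Trib3* from -0.024 to 0.24. All values are log2 fold changes. Another scaling moved no gene of the group by more than 0.0046. *Derl3* and *Ern2* are limited by low counts.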
